A study of Homo sapiens with 8 samples.

Results

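Chromosome 21 was followed through 1684 tiles of 1000 bases, out of 105628 such tiles on all autosomes and 100426 on autosomes 1 to 20. A tile entered when it held at least 3 CpGs that each had 5 or more reads in every library, and 2 short intervals past 40 Mb were left out. The chromosome was chosen because its mean methylation fell farthest of all autosomes, so that fall is described here and not tested. All positions are of genome build hg19 and counted from 1.

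The cells were HUES64, an established human embryonic stem cell line, and all libraries carried the same DNMT3A/3B double knockout. Reduced representation bisulfite sequencing (RRBS), which converts unmethylated cytosines and reads short fragments rich in CpGs, gave 1 library for each of passages 6, 7, 8, 11, 13, 17, 27 and 28, with 19898423 to 44599588 reads over the listed CpGs. Reads of libraries, tiles and windows are summed over CpGs here and below, so a read covering several CpGs counts once at each. Unedited cells were not analysed here, so there is no control group. The labels do not say whether the libraries follow 1 culture or 1 clone, and p-values measure only their scatter about a line, part of which may be technical. The early level is the mean of passages 6 to 8 and the late level the mean of passages 27 and 28.

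Chromosome 21 is the smallest human autosome, and an extra copy of it causes Down syndrome. On its long arm a gene-poor part lies nearer the centromere, while genes and CpG-rich DNA crowd towards the end of the arm. DNMT3A and DNMT3B set methylation on unmethylated DNA, DNMT1 copies it to the new strand after replication, and promoters rich in CpGs are normally free of it. Cells without the first pair depend on copying to keep what they have.

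Sequences of 4 gene starts show the kinds of CpG-rich DNA that the results below compare: TRPM2, whose window lost its methylation late, NCAM2, whose window stayed methylated, and SIK1 and SLC19A1, unmethylated starts that lie nearest the 2 tiles with the largest falls. They are the 250 bases before each start from RefSeq (GRCh38.p14), 5′ to 3′ on the gene's strand, with every CpG in capitals. Each was placed on the files' own hg19 positions by the spacing of its CpGs: at least 10 listed CpGs had to fall in the 300 base window, all of them on a CG of the sequence. Of 244 chromosome 21 windows with 10 or more CGs, 137 windows of 117 genes were placed, each at 1 place only, and none of them matched anywhere on chromosomes 20 or 22.
TRPM2 (chr21:45769774-45770023, plus strand): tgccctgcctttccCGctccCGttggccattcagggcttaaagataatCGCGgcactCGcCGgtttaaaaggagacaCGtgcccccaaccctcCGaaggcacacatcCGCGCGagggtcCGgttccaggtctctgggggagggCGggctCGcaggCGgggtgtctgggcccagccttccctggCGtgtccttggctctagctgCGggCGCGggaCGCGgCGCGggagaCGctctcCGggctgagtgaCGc
NCAM2 (chr21:22519230-22519479, plus strand): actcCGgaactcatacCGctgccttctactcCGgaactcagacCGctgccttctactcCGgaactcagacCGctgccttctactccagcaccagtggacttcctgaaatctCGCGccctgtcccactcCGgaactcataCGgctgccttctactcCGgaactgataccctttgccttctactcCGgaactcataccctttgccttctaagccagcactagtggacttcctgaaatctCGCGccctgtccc
SIK1 (chr21:44847012-44847261, minus strand): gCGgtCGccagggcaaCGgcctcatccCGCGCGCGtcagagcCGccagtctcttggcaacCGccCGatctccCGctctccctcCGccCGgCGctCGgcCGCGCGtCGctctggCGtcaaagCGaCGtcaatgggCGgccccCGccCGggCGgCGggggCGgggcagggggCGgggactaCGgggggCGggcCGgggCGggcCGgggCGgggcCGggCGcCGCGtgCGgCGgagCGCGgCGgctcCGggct
SLC19A1 (chr21:46961761-46962010, minus strand): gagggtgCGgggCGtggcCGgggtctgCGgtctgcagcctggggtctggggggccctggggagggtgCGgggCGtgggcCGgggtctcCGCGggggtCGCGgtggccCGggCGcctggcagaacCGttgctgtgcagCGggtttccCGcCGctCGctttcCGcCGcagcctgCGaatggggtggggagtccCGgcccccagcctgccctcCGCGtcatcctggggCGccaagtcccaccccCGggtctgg
The printed stretches hold 26 CpGs for TRPM2, 14 for NCAM2, 45 for SIK1 and 26 for SLC19A1. The NCAM2 stretch is repetitive, with an exact repeat of 45 bases inside it, so its reads may come from several copies and its place may be off by a repeat unit, although only 1 place met the rule. The windows of TRPM2 and NCAM2 were picked after their values were seen.

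Over the 8 passages in order, the mean level of chromosome 21 was 55.3, 55.3, 54.2, 51.4, 51.3, 48.7, 40.02 and 38.7%. The early mean of 54.9% ± 0.633 (SD, n = 3) and the late mean of 39.4% differed by -15.6 points, and the late level was 71.7% of the early one. Of the whole fall, 39.9% had happened by passage 17. Chromosome 22 came next with -14.3 points, and autosomes 1 to 20 ranged from -13.1 to -7.48. Chromosome 21 also fell farthest at a minimum of 10 reads (-15.3 points, 404 tiles) and at 5 CpGs per tile (-15.1 points, 884 tiles). At the edge of the tile rule, tiles with exactly 3 CpGs changed by -16.4 points (452 tiles), and tiles with exactly 2, which were left out, by -12.8 points (744 tiles).

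Median reads per tile on the chromosome, summed over CpGs, were 117 at passage 6 and 54 to 77 in the other libraries. No tile had under 15 in any library, but the number of separate molecules may be lower. The share of reads that fell on chromosome 21, among autosomes 1 to 21, stayed between 1.96 and 1.99% in all 8 libraries. It was 1.97% over the early and 1.98% over the late libraries, and changed by 0.000602 ± 0.000569 points per passage (SE, n = 8), a trend of r = 0.396 (exact permutation p = 0.322) and rho = 0.5 (p = 0.216, also exact). Without passages 27 and 28, r was 0.649 (exact permutation p = 0.157, n = 6). Within the chromosome, the part past 40 Mb held 47.0 to 48.2% of its reads, with no trend past the threshold (r = 0.411, exact p = 0.310 by permutation; rho = 0.0714, exact p = 0.882; r = -0.642 without passages 27 and 28, exact p = 0.172). The slope of the chromosome's share moved with the CpGs and libraries used. It was 0.00522 over CpGs with 10 reads in every library (exact permutation p = 0.0923), 0.00180 over those with 5 (exact permutation p = 0.130) and 0.000301 to 0.00114 without single libraries.

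The loss was concentrated towards the long-arm end. The chromosome was cut into 9 bands of 5 Mb. On average the last 2 bands, past 40 Mb, changed by -18.5 and -21.6 points, and the 7 bands before them by between -4.92 and -8.97 points. Band 9 (45000001 to 50000000, 662 tiles) stood at 53.8, 53.7, 52.1, 48.5, 48.4, 44.7, 32.6 and 30.6% over the 8 passages in order. Band 8 (40000001 to 45000000, 407 tiles) stood at 52.8, 52.9, 51.7, 48.2, 48.0, 45.7, 34.97 and 32.9%. Both lay under their lowest early library at every passage from 11 on, as did bands 2, 4, 6 and 7.

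The neighbouring band 7 (35000001 to 40000000, 185 tiles) started close to them and ended higher, with 49.1, 49.0, 48.2, 46.5, 45.7, 43.6, 40.2 and 39.4%. Band 6 (30000001 to 35000000, 167 tiles) stood at 49.5, 49.1, 49.5, 47.8, 47.8, 46.1, 41.9 and 42.1%. At the other end, band 2 (10000001 to 15000000, 53 tiles) stood at 82.1, 82.5, 81.3, 79.7, 79.3, 79.1, 77.4 and 75.2%, so it lost few points from the highest start of all bands. Band 1 (29 tiles), band 3 (71 tiles), band 4 (54 tiles) and band 5 (56 tiles) retained 91.0, 90.2, 93.7 and 91.8% of their early level, against 59.4% in band 9 and 64.8% in band 8.

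**Figure D1:**
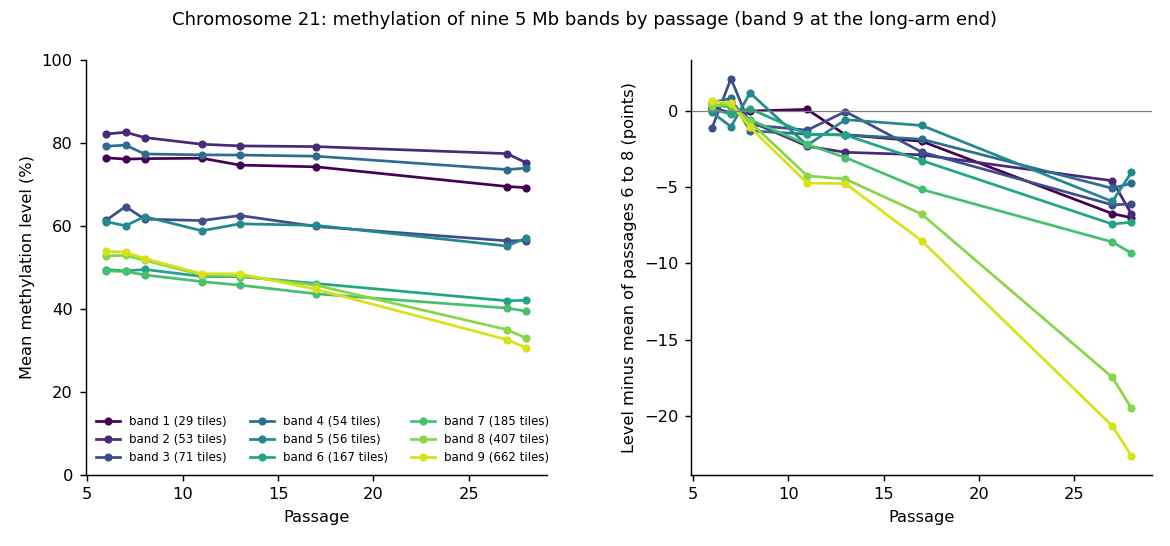
Mean methylation level (%, left) and its difference from the mean of passages 6 to 8 (points, right) against passage, 1 line per 5 Mb band of chromosome 21 and 1 point per library. In level, bands 8 and 9 lie close to bands 6 and 7 up to passage 17 and below all others at passages 27 and 28. They changed by -18.5 and -21.6 points from early to late, while bands 1 to 7 changed by -4.92 to -8.97 points.

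Differences between bands were not used to choose the chromosome. They were tested, as the slope of a band on passage minus that of all other tiles of the chromosome. Bands 8 and 9 hold 63.5% of its tiles and so weigh most in the fall it was chosen for. Their tests are therefore not fully apart from that choice. The 9 differences are not independent, because each band is part of the rest for the others. Band 9 changed by -1.05 points per passage and the rest by -0.561, a difference of -0.486 ± 0.0243 (SE, n = 8). Its r was -0.993 (exact permutation p = 4.96e-05, 0.000335 after adjustment), and its rho -0.976 (exact p = 0.000397). Without passages 27 and 28 it still passed (r = -0.982, exact permutation p = 0.00278, n = 6). For band 8 the difference was -0.181 ± 0.0220 (SE, n = 8). Here r was -0.958 (exact permutation p = 0.00114, 0.00128 after adjustment) and rho was -0.857 (exact p = 0.0107), but the difference did not pass without passages 27 and 28 (r = -0.777, exact permutation p = 0.0889, n = 6). The other 7 bands fell more slowly than the rest, by 0.354 to 0.544 points per passage, with adjusted p between 0.000335 and 0.00146 (exact permutation tests, n = 8). Of these, band 7 did not pass without passages 27 and 28 (r = 0.763, exact permutation p = 0.0861, n = 6).

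Bands differed in what they started with. Tiles starting at 80% or more made up 66.0% of band 2 and 33.99% of band 9, and the median number of CpGs listed per tile was 7 and 11. With the rest of the chromosome weighted to a band's own mix of start levels and CpG densities, band 9 still fell faster, by -0.397 ± 0.0210 points per passage (8 libraries, SE; exact permutation p = 2.48e-05, the smallest that 8 libraries allow, adjusted p = 0.000223). Band 8 did so by -0.217 ± 0.0264 (SE, n = 8; exact permutation p = 0.000992, adjusted p = 0.00112), but not without passages 27 and 28 (r = -0.808, exact permutation p = 0.0889, n = 6). The other 7 fell more slowly, by 0.171 in band 7 to 0.680 in band 4 (adjusted p no higher than 0.0179 by exact permutation). Bands 8 and 9 were again part of the rest for all 7, so these are not separate results. The difference of band 7 rested on passages 27 and 28: without them r was -0.0948 (exact permutation p = 0.878, n = 6), it did not pass without either 1 of them (exact permutation p = 0.0748), and rho over all 8 was 0.452 (exact permutation p = 0.267).

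In steps of 1 Mb the change had an edge. From 9 to 6 Mb before the last listed CpG (position 48119538) the steps changed by -8.60, -6.97, -9.82 and -8.80 points, over 49, 18, 37 and 16 tiles. The next step, from 42144001 to 43108000 with 52 tiles, changed by -16.5 points, and the one after it, from 43133001 to 44113000 with 116 tiles, by -17.2. The last 4 steps held 188, 232, 259 and 163 tiles and changed by -22.4, -20.8, -22.0 and -22.7 points. Early levels were 73.0% in the step just before this edge, 57.8% in the step just after it and anywhere from 33.4 to 85.0% farther back.

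**Figure D2:**
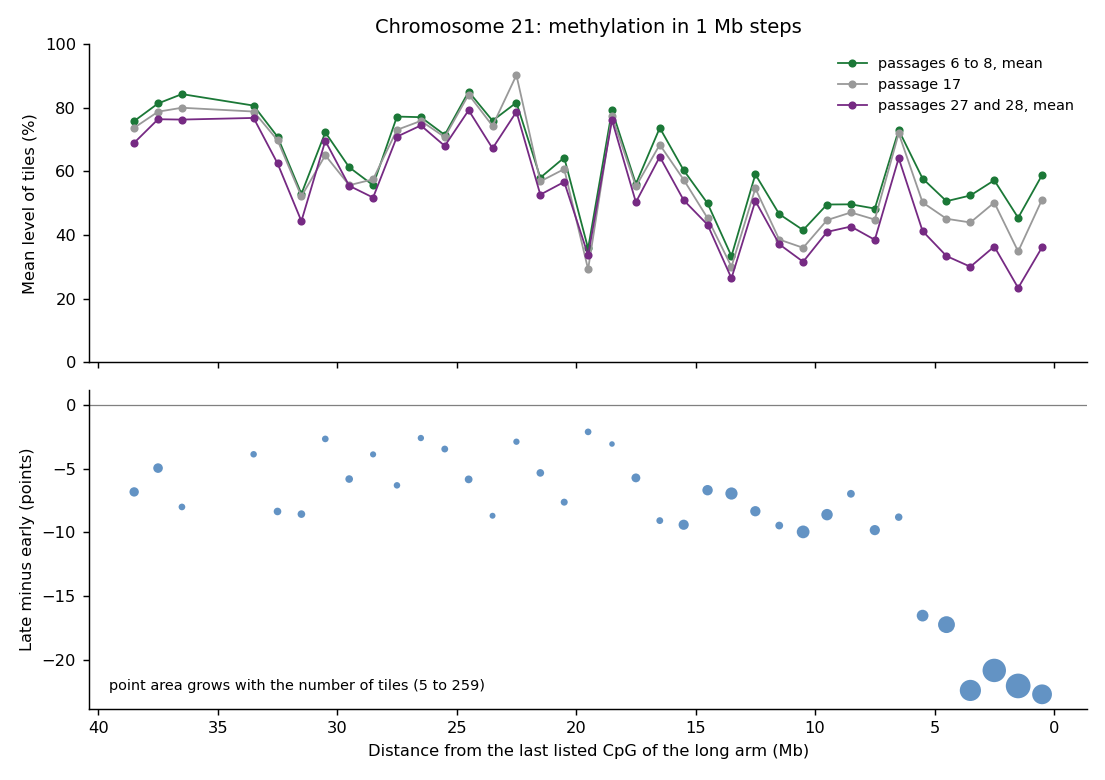
Mean tile level (%, top) early, at passage 17 and late, and the late minus early change (points, bottom), in 1 Mb steps against distance from the last listed CpG of the long arm. The change stays between -2.12 and -9.96 points until 6 Mb from the end and lies between -16.5 and -22.7 points in the 6 steps nearest the end.

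Autosomes 1 to 20 were used to see how much of this came with the kind of tile. Their tiles were weighted to those of chromosome 21 by start level (7 classes), by the number of CpGs listed per tile (4 classes) and by distance to the nearer chromosome end (5 classes). So weighted they changed by -13.6 points, against -9.996 unweighted, and chromosome 21 exceeded them by -1.95 points. The excess was not tested, because the chromosome was chosen on this contrast. Each of autosomes 1 to 20, set against the other 19 in the same way, gave values from -1.80 (chromosome 11) to 1.53 points, with an SD of 0.809 over the 20. Chromosome 22 gave -3.20, so that after matching chromosome 21 was no longer first among autosomes. Matching without distance to the end left an excess of -4.02 points.

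**Figure D3:**
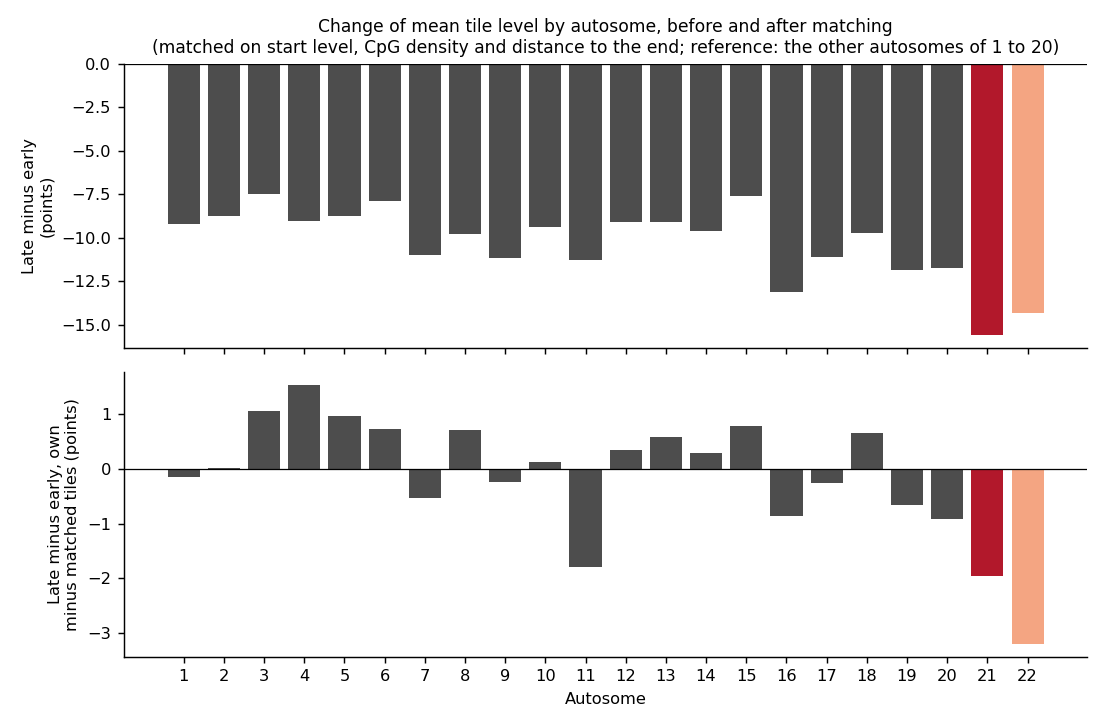
Late minus early change of the mean tile level (points) for each autosome, raw (top) and minus matched tiles of the other autosomes of 1 to 20 (bottom). Chromosome 21 has the largest raw fall, -15.6 points, and after matching it lies at -1.95, between chromosome 11 at -1.80 and chromosome 22 at -3.20.

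The whole-chromosome excess was made of parts of opposite sign. The last 2 bands fell by 20.4 points where matched tiles of other autosomes changed by -16.3, a difference of -4.16. The first 7 bands changed by -7.11 points where their matched tiles changed by -8.998, a difference of 1.89. By single band the difference was -3.97 in band 9, -4.48 in band 8, -0.458 in band 7 and -0.0687 in band 6. It was 2.94 in band 5, 5.64 in band 4, 3.75 in band 3, 4.66 in band 2 and 9.52 in band 1, which has only 29 tiles. Band 1 was matched as lying 5 to 10 Mb from an end, since distance also ran from the first base, although no tile was measured before this band. On autosomes 1 to 20 that distance class changed by -11.4 points, against -7.44 at 10 Mb or more. The cut at 40 Mb was made after the band values were seen.

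This excess came late. In the last 2 bands the level minus that of matched tiles was -0.0687, 0.202 and -0.367 points at passages 6 to 8, then -0.646, -0.344 and -0.759 at passages 11, 13 and 17. At passages 27 and 28 it was -4.04 and -4.44. Tiles were matched on the mean of passages 6 to 8, so the small differences at those passages were set by the matching. At passages 11, 13 and 17 the end of chromosome 21 ran no farther than -0.759 points from comparable tiles elsewhere, and the last pair of libraries stood lower.

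**Figure D4:**
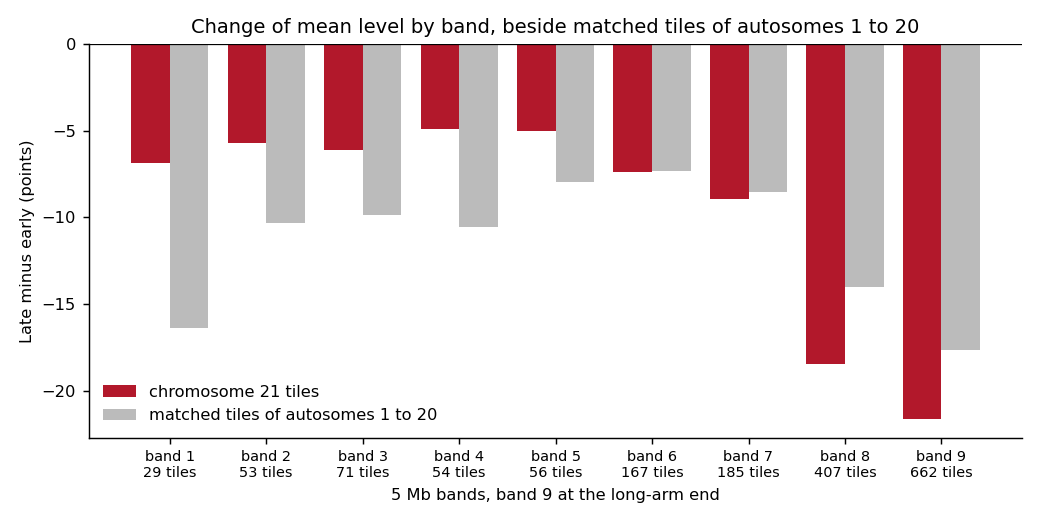
Late minus early change (points) of the chromosome 21 tiles of each 5 Mb band, beside tiles of autosomes 1 to 20 weighted to the same start level, CpG density and distance to the end. Chromosome 21 fell less than matched tiles in bands 1 to 5 (differences of 2.94 to 9.52 points), about as much in bands 6 and 7 and more in bands 8 and 9 (-4.48 and -3.97).

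Tile by tile, a quasi-binomial fit on passage with limma's moderated dispersion called a loss in 640 of 1369 tested chromosome 21 tiles (46.7%) and a gain in 2 (0.146%). Over all autosomes it called a loss in 33.9% of 78385 tested tiles and a gain in 0.166%, over autosomes 1 to 20 a loss in 33.2% and a gain in 0.168%, and since the chromosome was chosen on this contrast nothing is read from the difference. The other 315 tiles had under 10 methylated or under 10 unmethylated reads in all and were not tested. The median change of all 1684 tiles was -8.32 points, beside -3.86 over all autosomal tiles. Of the calls, 557 lay in the last 2 bands (62.4% of 892 tested) and 83 in the first 7 (17.4% of 477). Calls of loss were also more frequent near the ends of autosomes 1 to 20. There they numbered 2381 of 4850 tested tiles under 1 Mb from an end and 4667 of 8086 at 1 to 2.5 Mb. Farther in they numbered 3398 of 7050 at 2.5 to 5 Mb, 2901 of 7713 at 5 to 10 Mb and 11268 of 46520 beyond. The 640 called losses of chromosome 21 had a median fitted change of -34.6 points, and 149 of them fell by 50 or more. From passages 6 to 17 alone, 200 of 1344 tested tiles were called (14.9%), beside 10.4% over autosomes 1 to 20 in the same fit.

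The fall differed most between the 2 parts of the chromosome for tiles that started between 40 and 90%. Tiles starting between 60 and 80% went from 72.0 to 36.7% in the last 2 bands (196 tiles), from 71.9 to 64.1% in the first 7 (149 tiles) and from 72.1 to 54.7% on autosomes 1 to 20. Tiles starting between 40 and 60% went from 50.4 to 12.9% in the last 2 bands (116 tiles) and from 52.6 to 33.2% in the first 7 (41 tiles). Those starting at 90% or more kept most of their level in both parts, from 93.7 to 81.4% (173 tiles) and from 94.1 to 86.5% (126 tiles). Tiles starting under 10% had little to lose and went from 1.59 to 0.435% (242 tiles) and from 0.588 to 0.226% (146 tiles).

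A start of 80% or more was seen in 616 chromosome 21 tiles, of which 297 kept such a level late and 18 dropped under 20%. All 18 lay in the last 2 bands, which kept 139 of 368 such tiles at 80% or more. The first 7 bands kept 158 of 248 and dropped none under 20%. On autosomes 1 to 20 the same level was kept by 57.9% of 35581 tiles, and 0.891% dropped under 20%. Tiles of 1 stretch are not independent, so these shares carry no interval.

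The change also differed with the number of CpGs listed per tile, and the 2 parts were not tested against each other for this. Among tiles of the last 2 bands starting at 60% or more, the change was -21.6 points with 3 to 9 listed CpGs (317 tiles). It was -29.7 with 10 to 19 (183 tiles), -39.3 with 20 to 34 (47 tiles) and -19.0 with 35 or more (17 tiles). In the first 7 bands the same classes changed by -8.19, -7.59, -6.72 and -3.40 points, the last over 4 tiles. On autosomes 1 to 20 these classes changed by -12.1, -14.0, -15.7 and -9.73 points. There too the fall was largest with 20 to 34 listed CpGs and smallest with 35 or more. Over the whole chromosome, tiles with 20 or more listed CpGs fell from 83.3 to 57.1% (89 tiles) and those with 3 to 9 from 82.99 to 67.8% (602 tiles). The difference of their slopes was -0.530 ± 0.113 points per passage (8 libraries, SE; r = -0.886, exact permutation p = 0.0305). It rests on the last 2 libraries, since rho was -0.357 (exact permutation p = 0.389) and r without passages 27 and 28 was 0.612 (exact permutation p = 0.197, n = 6). It was also not passed without passage 27 or without passage 28 alone (exact permutation p = 0.128 in each case, n = 7). The 2 groups of tiles were not matched on position. The last 2 bands held 47 and 17 of the 89 tiles with 20 or more listed CpGs, against 317 of the 602 with 3 to 9. In the first 7 bands, classes with more listed CpGs fell less.

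The 98 distinct placed start windows with at least 3 usable CpGs stood apart from the tiles around them. Of these, 92 started under 10%, at a mean of 0.241%, and ended at a mean of 0.135%, none above 2.68%. Past 40 Mb, 51 of 53 windows started under 10%. Windows of neighbouring starts overlap, and CpG-poor starts could not be placed. Of the 244 windows with 10 or more CGs, 137 were placed, and not all of those had enough usable CpGs. The windows are thus only a part of the CpG-rich starts of the chromosome.

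In the last 2 bands, tiles within 1000 bases of such an unmethylated start went from 2.19 to 1.10% (62 tiles). Between 1000 and 2000 bases away they went from 25.8 to 16.4% (20 tiles), and between 2000 and 5000 bases from 66.8 to 49.1% (31 tiles). Those between 5000 and 20000 bases went from 58.7 to 37.5% (182 tiles), and those beyond from 55.8 to 33.6% (774 tiles). The fall in points was therefore not smaller far from these starts. Tiles counted as far may still lie near starts that were not placed or not measured. In the first 7 bands the tiles more than 20000 bases away went from 64.0 to 56.2% (529 tiles).

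The 2 windows past 40 Mb that started above 10% both belonged to TRPM2, which encodes a calcium-permeable cation channel opened by oxidative stress. The window whose first 250 bases are printed above stood at 66.7, 64.2, 75.4, 68.9, 77.7 and 87.9% at passages 6, 7, 8, 11, 13 and 17, and at 10.8 and 1.48% at passages 27 and 28. Its 7 usable CpGs had 58 to 183 reads per library together. The 6 libraries up to passage 17 did not overlap the last pair, and the level was highest at passage 17, just before the fall.

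The 2 tiles that the window touches share CpGs with it, so their late fall is no separate observation. All 5 usable CpGs of the tile from 45769001 belong to the window, as do some of the 4 in the tile from 45770001. The tile from 45769001 to 45770000 went from 71.6% ± 6.40 (SD, n = 3) to 6.39% (limma's moderated dispersion, adjusted p = 0.000238). The tile from 45770001 to 45771000 went from 74.9% ± 4.60 (SD, n = 3) to 13.7% (adjusted p = 0.000321, same fit). The other tiles around it kept more. The tile on the upstream side, from 45768001 to 45769000, went from 88.6% ± 8.22 (SD, n = 3) to 73.6% (adjusted p = 0.0401, same fit). On the transcribed side, the tile from 45771001 went from 53.7 to 26.4% and still had 42.4% at passage 27, and that from 45772001 went from 83.8 to 62.7%. The other TRPM2 window (45845283 to 45845582, 3 CpGs) went from 23.9 to 0.794% and fell early, with 2.27% at passage 11 and 0% at passage 17.

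The NCAM2 window did the opposite of TRPM2. NCAM2 encodes a neural cell adhesion molecule, and its gene lies in the proximal, slowly changing part of the chromosome. The 7 usable CpGs stood at 97.8, 100, 98.1, 100, 94.9, 97.3, 97.2 and 98.9% over the 8 passages, with 52 to 134 reads. It is the same set of CpGs as in the tile from 22519001 to 22520000, 1 of the 5 best kept tiles. Of the other windows that started at 80% or more, that of LINC01666 went from 95.9 to 88.2% and that of LOC101930100 from 86.0 to 89.0%.

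The largest fall from early to late mean was beside SIK1, which encodes a salt-inducible kinase. The tile from 44841001 to 44842000, centred 5510 bases from the SIK1 start on its transcribed side, stood at 90.9, 96.1, 93.6, 86.0, 91.3 and 88.5% up to passage 17 and at 3.79 and 2% at passages 27 and 28 (adjusted p = 8.14e-07 with limma's moderated dispersion). Each of its 10 CpGs had 75.0% or more at passage 17, at most 13.3% at passage 27 and at most 6.67% at passage 28. Close CpGs can be read on the same molecules, so their agreement is no separate support. Single CpGs had 5 to 37 reads in a library. Nearly all of the fall therefore lay between passages 17 and 27.

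Around the SIK1 start an unmethylated centre was flanked by falling tiles on both sides. The tiles from 44845001 to 44848000 held 0, 0.228 and 0.0777% early and 0, 0.260 and 0% late. On the transcribed side the 5 measured tiles from 44837001 to 44842000 started at 44.8, 79.8, 58.2, 72.5 and 93.5% and ended at 0.874, 0.658, 0.503, 1.97 and 2.89%. On the upstream side the tiles from 44850001, 44851001 and 44852001 started at 16.4, 39.9 and 79.6% and ended at 0, 0 and 21.2%. Farther out, the tile from 44856001 went from 90.5 to 67.2%.

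The tile with the next largest such fall, and a larger fitted one (-92.5 against -90.2 points), from 46952001 to 46953000, lay 9259 bases from the placed start of SLC19A1, the reduced folate carrier. It stood at 91.3, 92.3, 85, 81.3, 58.5 and 62.5% up to passage 17 and at 0% in both late libraries, where 122 pooled reads allow up to 3.05% (Wilson interval, counting error only). Its 3 CpGs together had 16 to 70 reads per library, and as these may share molecules, the Wilson interval may be too narrow. Not all of its surroundings fell. The tile from 46957001 to 46958000, with 34 listed CpGs, went from 82.8% ± 6.16 (SD, n = 3) to 81.8%, and that from 46958001 from 90.1% ± 2.77 (SD, n = 3) to 95.8%. The SLC19A1 window itself stood at 0.876% early and 1.58% late.

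The other 3 tiles of the 5 with the largest falls lay in the same bands. The tile from 43166001 to 43167000, with 5 CpGs, started at 90.4% ± 5.08 (SD, n = 3) and ended at 3.58%. The tile from 44823001 to 44824000, with 7 CpGs and 23510 bases from the SIK1 start, went from 86.4% ± 9.98 (SD, n = 3) to 1.44%. The tile from 45178001 to 45179000 (3 CpGs) stood at 84.3, 82.98, 79.5, 70.0, 63.2 and 58.3% up to passage 17 and at 0% in both late libraries. These tiles followed different courses before passage 17, with 84.4, 66.7 and 58.3% there, and all ended at a late mean of 3.58% or less.

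**Figure D5:**
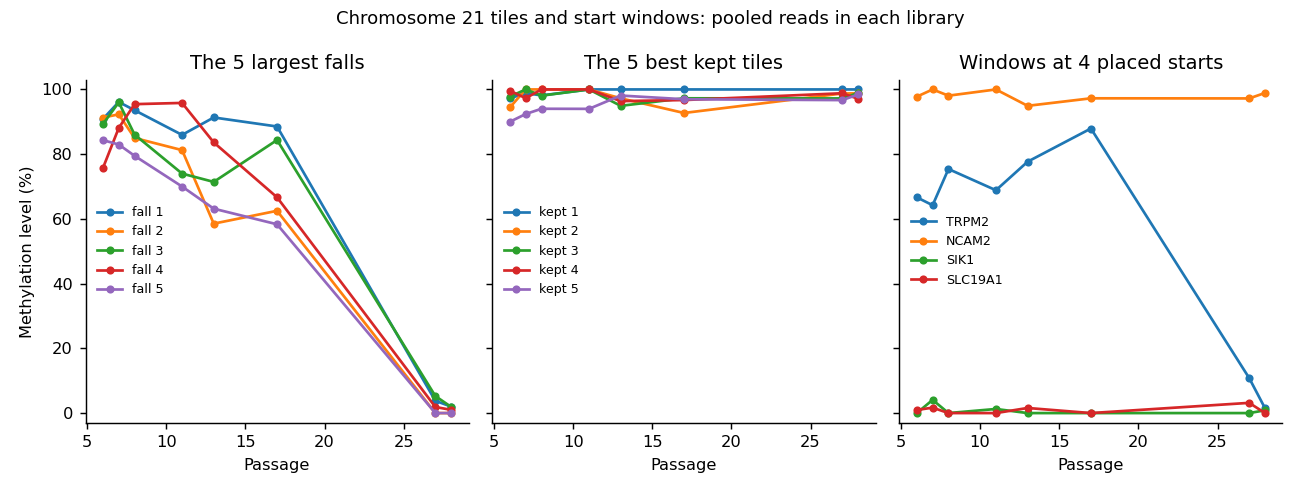
Methylation level (%) against passage, from pooled reads in each library, for the 5 called tiles with the largest fall (left), the 5 best kept tiles of high start (middle) and the windows at 4 placed starts (right). All 5 falls and the TRPM2 window lie at 58.3% or above up to passage 17 and at 10.8% or below at passages 27 and 28, while the kept tiles and NCAM2 lie at 90% or above in every library.

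Called falls were joined into runs. The longest, with gaps of at most 5000 bases, held 19 of the 20 tiles measured from 46392001 to 46425000, between the placed starts of SLX9 and ADARB1, and their mean went from 48.6 to 7.52%. The next held all 17 measured tiles from 47406001 to 47431000, from 69.5 to 7.88%. The 5 longest runs, of 15 to 19 tiles, all lay between 44783001 and 47431000. Runs are made of called falls, so their counts and means are descriptions. In bands 8 and 9, where these runs lay, 57.3 and 65.4% of all tested tiles were called.

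Changes of tiles that touch each other correlated at r = 0.527 (520 pairs) on chromosome 21 and at 0.540 on autosomes 1 to 20. Among tiles starting at 60% or more and 10000 to 20000 bases apart, r was 0.369 on chromosome 21 (846 pairs) and 0.247 on autosomes 1 to 20. Pairs share tiles and libraries, so these values describe the data only.

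In the slowly changing bands, single tiles still fell far. The largest called fall was from 78.4 to 7.12% in band 7 (38114001 to 38115000, 7 CpGs) and from 70.4 to 2.63% in band 6 (34424001 to 34425000, 3 CpGs). It was from 54.5 to 30.6% in band 5 (27290001), from 76.8 to 56.1% in band 4 (20360001), from 90 to 27.9% in band 3 (15646001), from 90.3 to 76.6% in band 2 (10599001) and from 73.1 to 42.3% in band 1 (9487001). The band 2 call was lost without any 1 of passages 6, 7, 8, 11 or 27 (adjusted p 0.0553 to 0.111, limma's moderated dispersion). That of band 1 was lost without passage 28 and with reads thinned to equal depth, where its fitted change was -16.8 points in place of -33.6 (adjusted p = 0.269, limma's moderated dispersion). Those of bands 4 and 5 were lost without passage 6 or 27, and without passage 27.

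Both called gains were lost when single libraries were left out. The tile from 20137001 to 20138000 (3 CpGs) stood between 38.5 and 47.8% up to passage 17 and at 60 and 78.4% late (adjusted p = 0.0270, limma's moderated dispersion), and lost its call without passage 28 (adjusted p = 0.327). The tile from 43697001 to 43698000 (3 CpGs) started at 87.3% ± 9.25 (SD, n = 3), ended at 97.0% and lost its call without any 1 of passages 6, 11, 17, 27 or 28.

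The best kept tiles of at least 5 CpGs and a start of 80% or more had late means of 97.6 to 100%. They lay at 26734001, 15448001, 22519001, 47581001 and 16661001, so 4 of the 5 were in the first 7 bands. The tile from 47581001 to 47582000, with 47 listed CpGs, stood at 99.6, 97.3, 100, 100, 96.4, 96.7, 98.8 and 97.1%, inside the band that lost most. These tiles were picked for their late level, so their lack of change is no evidence of stability.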

How the data were processed

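The deposited files list, for each CpG of build hg19 per the submitters' processing notes, methylated and total reads, which were used as deposited. The deposited score is 1000 times the methylated share, which was checked line by line, and entered no result. The aligner, caller, filters and any removal of duplicates were not given in the sources used here, so counting intervals may be too narrow. A tile's level is its pooled methylated over pooled total reads, and means over tiles give each tile the same weight.

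Slopes are least squares on passage, and their p is that of Pearson's r, two-sided and exact over the 40320 orders of 8 libraries (720 for 6), adjusted by Benjamini-Hochberg over the 9 bands. Tiles of all autosomes were fitted by quasi-binomial logistic regression on passage, with dispersion moderated by squeezeVar of limma 3.58.1 and not under 1, an F test, and adjustment by Benjamini-Hochberg over all tiles tested. A call needs an adjusted p under 0.05 and a fitted change of 10 points. At least 10 reads of each state were required. The fit was tested on simulated data. Python 3.11.15 and R 4.3.3 were used.

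Start classes were cut at 10, 20, 40, 60, 80 and 90%, density classes at 9, 19 and 34 listed CpGs, and distance at 1, 2.5, 5 and 10 Mb, with the last listed CpG as the chromosome end. Named tiles were the 5 largest called falls and rises, the 5 best kept, the largest called fall of each band and the longest run. The cut at 40 Mb, distances to starts, placed windows and their neighbours were chosen after values were seen. The members, lists and classes were chosen with earlier results of these data known. Of RefSeq's GRCh38.p14 promoter table, 388 chromosome 21 genes were looked up; its coordinates were not used. The alternatives are described in the closing section.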

Additional observations from a re-analysis of the deposited data

How the results depend on the processing

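The fall of the chromosome (-14.9 to -16.2 points without single libraries) moved by less than its scatter around the trend in every alternative run. Its excess over matched autosomes was -1.48 points at 10 reads and -4.02 without matching on distance. It lay between -1.81 and -2.18 in the other alternatives, including distances to the long-arm end alone, which was added after seeing the data. Losing tiles numbered 157 of 265 tested at 10 reads (59.2%, beside 46.9% on autosomes 1 to 20), 352 of 639 at 5 CpGs per tile (55.1%, beside 39.0%) and, added after seeing the data, 200 over passages 6 to 17 (14.9%, beside 10.4%). The first 2 of these settings test fewer tiles. Bands falling more slowly than the rest numbered 4 at 10 reads, and 3 when matched, where only 6 bands reached 20 tiles. Bands falling faster numbered 1 with bands shifted by 2.5 Mb, and 1 over passages 6 to 17, both raw and matched, where band 8 did not pass. The matched difference of band 7 turned to -0.000632 at 10 reads and -0.00758 over passages 6 to 17. The density difference was -0.288 at 10 reads (exact permutation p = 0.0964, n = 8), -0.0500 for 35 or more listed CpGs (exact permutation p = 0.571, n = 8), 0.0786 over passages 6 to 17 (exact permutation p = 0.197, n = 6) and -0.554 to -0.423 without single libraries. The cause of these shifts was not tested. Of the values for named tiles, 172 stayed on their side of the threshold and 17 lost it, and of those for single bands 253 stayed, 5 lost it and 2 reversed. Thinned reads called 585 of 1294 tiles (45.2%, beside 30.9%). No paired analysis was possible because no group holds more than 1 library.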
